A study of Bos taurus with 17 samples.

Results

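Cytosolic ribosomal protein genes were the 83 rows, of 17167 in the deposited table, whose gene symbol has the form of a large subunit (RPL, RPLP) or small subunit (RPS, RPSA) protein, with the ribosomal S6 kinases left out. The rows carry 82 symbols, because RPS29 has 2 rows, and comprise 44 rows of core 60S proteins, 32 of core 40S proteins and 7 of paralogs. Messenger RNA was sequenced from 17 pools of 10 bovine (Bos taurus) morulae produced in vitro, 9 of them labelled control and 8 labelled as treated with recombinant WNT5A, a secreted ligand of the WNT family. The labels give no dose or length of exposure to WNT5A and do not tell whether the pools of a group are separate rounds of embryo production, and p-values therefore measure only pool-to-pool spread, which may be technical. In pooled embryos, fewer cells of a type and less RNA per cell cannot be told apart.

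The cytosolic ribosome is built from a small 40S subunit, which decodes the messenger RNA, and a large 60S subunit, which forms the peptide bond. Each ribosomal protein is needed in about the same number of copies per ribosome, and most of these genes give short, abundant messenger RNAs that begin with a 5′ terminal oligopyrimidine (TOP) tract and are regulated together in translation downstream of the kinase mTOR. In the cleavage-stage mammalian embryo, ribosomes inherited from the oocyte are replaced after the embryonic genome is activated, and ribosomal protein genes are among the genes then transcribed.

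The pools held 34.0 to 200.1 M reads over the genes in the table, with WNT5A pools 4, 12 and 14 lowest at 34.0 to 52.4 M. The ribosomal protein rows together took 2.54% to 6.50% of the reads of a pool. Control pools 2, 3 and 6 held reads for 10055 to 11268 genes, and the other 14 pools for 13129 to 16589. Of 7 markers of the morula and its early lineages, 5 were at 15.7 RPKM (reads scaled to exon length and to the library total) or more in every pool, led by POU5F1 at a mean of 1837 RPKM. NANOG and GATA3 averaged 6.41 and 34.9 RPKM but were at 0 and 0.0832 in their lowest pools. Markers of cumulus and granulosa cells, 6 of 8 with a row, summed to 0 to 17.7 RPKM in control pools and 0.807 to 4.55 in WNT5A pools, and each of the 6 was at 0 in at least 1 pool. AMH and FOXL2 had the highest means of these, 1.71 and 1.27 RPKM, with FOXL2 at 17.7 in 1 control, and FSHR and CYP19A1 averaged 0.155 and 0.363. The 6 oocyte markers summed to 1.91 to 17.5 RPKM in controls and 2.97 to 18.7 with WNT5A. Blood and immune markers, 3 of 5 with a row, summed to 3.60 to 19.9 RPKM in controls and 3.76 to 8.71 with WNT5A, and sperm markers, 2 of 3 with a row, to 0 to 10.6 and 0 to 2.89. The blood marker AIF1 and the sperm marker TNP1 had log2 changes of -1.18 and -1.17 with WNT5A (limma adjusted p = 0.673 for both). Without control pools 2, 3 and 6 AIF1 was -0.72 and TNP1 -1.14. The part of these cells in the ribosomal protein levels was not tested.

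The level of ribosomal protein messenger RNA differed widely from pool to pool. The 83 rows summed to 25097 RPKM in control pool 9 and 85166 RPKM in control pool 6, and both extremes of the study were thus controls. The sums in the other controls were 34906 (pool 1), 58114 (2), 53111 (3), 34280 (4), 58860 (5), 53463 (10) and 50915 (13). In WNT5A pools they were 35889 (pool 1), 42027 (2), 40795 (4), 39203 (7), 52531 (10), 31092 (11), 45351 (12) and 55564 (14). Every WNT5A sum lay between the lowest and the highest control. The mean log2(RPKM + 1) over the 81 rows that entered the test averaged 8.71 ± 0.54 over the 9 controls and 8.54 ± 0.30 over the 8 WNT5A pools (SD), and the pools with the lowest and highest mean differed 3.47-fold.

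**Figure D1:**
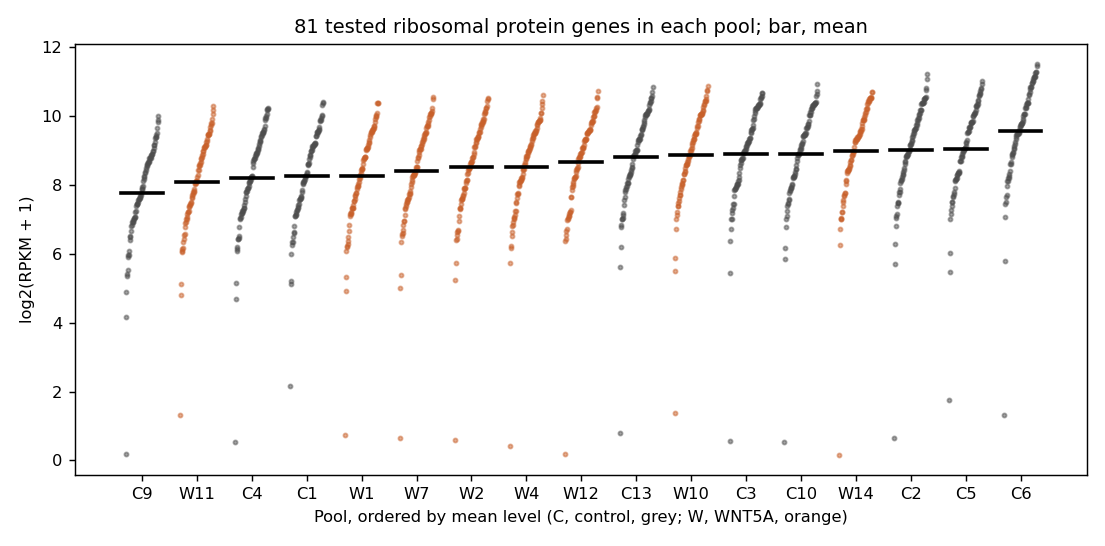
Level of each of the 81 tested ribosomal protein genes, as log2(RPKM + 1) on the y axis, in each pool on the x axis, with pools ordered by their mean (black bar) and coloured by group. Control pools 9 and 6 stand at the 2 ends with means of 7.76 and 9.55, and the 8 WNT5A pools lie between 8.08 and 8.98.

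Among the 80 rows at 0.5 RPKM or more in every pool, mean levels per length ran from 44.2 to 1648 RPKM. RPS3, a 40S protein at the entry of the mRNA channel, was highest. It had 1034 RPKM in its lowest control, 1820 in the median and 2944 in the highest, and 1263, 1475 and 1863 RPKM in the same order in WNT5A pools, so that the treated pools fell inside the control range. The next in order were RPL13 (1504), RPL8 (1444), RPLP0 (1324) and the 40S protein gene RPS15 (1286 RPKM). Controls had SDs of 300.5 to 628 RPKM (n = 9) for these 5 genes. These SDs are between pools and do not decide the order of genes within a pool. RPS3 exceeded RPS15 in every pool, whereas RPL13 exceeded RPS3 in some, such as control pool 1 (1369 against 1336 RPKM). The lowest of the 80 were RPL22L1 (44.2), RPL22 (64.3), RPL19 (101), the multi-exon row of RPS29 (112) and RPL36A (117 RPKM). A level per length depends on the deposited exon length, which was 1734 bases for RPL22 and 1086 for this row of RPS29. The fewest reads behind any of the 80 in any pool were 1535, for RPL38 in WNT5A pool 4, where counting error alone is 2.55%.

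The remaining 3 rows were near the floor. RPL3L, which in mouse and human is the striated muscle form of RPL3, averaged 0.898 RPKM with reads in 14 of 17 pools, and WNT5A pool 4 held its highest value of 5.50. RPL10L, known in mouse and human as the testis copy of RPL10, averaged 0.322 RPKM. It had reads in 6 of 17 pools, with 3.03 RPKM in control pool 13, 1.69 in control pool 5, 0.694 in WNT5A pool 10 and at most 0.0167 in the other 14. A single-exon second row of RPS29, 171 bases long, averaged 0.921 RPKM and passed the filter on low values, so that 81 of the 83 rows were tested and RPL3L and RPL10L were not.

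The genes rose and fell together across pools. Of 81 tested rows, 72 were lowest in control pool 9 and 67 were highest in control pool 6. Over the 17 pools the 3240 pairs of rows had a median Pearson r of 0.867, against 0.129 over 2355 other tested genes at least as abundant as RPL22L1 and 0.0317 over all 12415 genes tested. These r values are descriptions over pools, and all genes of a pool share its library depth and scaling. A single component, on which all 81 rows loaded in the same direction, held 81.7% of their variance between pools. The median r was 0.946 within the 9 controls and lower, at 0.745, within the 8 WNT5A pools, where 40.9% of pairs exceeded 0.8 against 92.8% in controls. It was 0.938 over the 11 pools without control pools 2, 3 and 6 and WNT5A pools 4, 12 and 14, and 0.957 over the 6 remaining controls. Without the 2 extreme pools, controls 6 and 9, it was 0.791.

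RPS13, a 40S protein gene, and RPL32, a 60S protein gene, followed the mean of the other ribosomal protein genes most closely, at r = 0.989 and 0.988 over 17 pools, before RPL27A (0.984), RPL23 (0.984) and RPS24 (0.980). RPS13 stood at 605, 1193 and 2056 RPKM in its lowest, median and highest control and at 708, 925 and 1395 in WNT5A pools, a pattern with wide overlap of the groups. The single-exon RPS29 row followed the others least (r = 0.121). It was followed by RPL7L1 (0.627), RPS4X (0.629), RPL7 (0.691) and RPL5 (0.741). RPL7L1, which in human cells acts on precursors of the 60S subunit more than as a fixed ribosomal protein, was nearly flat, with 171 to 243 RPKM in controls and 151 to 206 in WNT5A pools.

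Individual genes differed in how far they moved. The within-group SD on the log2(RPKM + 1) scale had a median of 0.51 over the 81 rows, against 0.40 for the 2355 other genes at least as abundant as RPL22L1 and 0.63 for all tested genes. Relative to the SD that limma's trend gives for a gene of the same abundance, 75 of 81 rows lay above, as did 55.7% of all tested genes. The rows at or below that trend were RPL7L1, RPL4, RPL3, RPSA, RPL8 and the single-exon row of RPS29. RPL7L1 (0.18), RPL4 (0.23), RPL3 (0.23), RPSA (0.29) and RPL8 (0.32) were also the 5 least variable. RPL4 lines the peptide exit tunnel and RPL3 lies near the peptidyl transferase centre, whereas RPSA, on the 40S subunit, is also known as a laminin receptor. RPL3 differed 1.77-fold between its lowest and highest pool, from 699.8 RPKM in control pool 9 to 1240 in control pool 5.

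RPS4X (0.68), RPL22 (0.66), RPL17 (0.65), RPL38 (0.64) and RPS9 (0.64) were the most variable by this SD. Among the 80 rows at 0.5 RPKM or more in every pool, the span between lowest and highest pool was widest for the stalk protein gene RPLP1, at 6.21-fold, from 359 RPKM in control pool 9 to 2229 in control pool 6. Over the 80 rows the SD fell with exon length (Pearson r = -0.40 with log2 length, Spearman rho = -0.36) and with mean level (r = -0.41 with log2 RPKM, rho = -0.46). Genes are not independent replicates, and these are descriptions across genes. After the mean of the other members in the same pool was subtracted, the median within-group SD went from 0.51 to 0.20, and it became smaller for 77 of the 81 rows. The exceptions were RPL7L1, RPL4, RPL3 and the single-exon row of RPS29.

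The spread was wider among controls than among WNT5A pools, with a median SD of 0.58 against 0.36. It was wider among controls for 74 of 81 rows, where 78.8% of all tested genes showed the same. For 66 of the 81 rows every WNT5A pool lay inside the control range, which held for 52.7% of all tested genes. The difference in spread was not tested.

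WNT5A did not change any ribosomal protein gene past the threshold. With limma on log2(RPKM + 1), adjusted over all 12415 genes tested, 0 of 81 rows had an adjusted p under 0.05, and 0.00805% of all tested genes did. At an unadjusted p under 0.05 there were 2 lower rows, RPS19 and RPL7L1, and 0 higher ones, against 1.62% and 5.73% of all tested genes. Fitted changes were below 0 for 69 of 81 rows, with a median of -0.21, where 37.7% of all tested genes were below 0 and their median was 0.11. This count depended on which pools were kept. Without control pools 2, 3 and 6 it was 35 of 81 with a median of 0.02, beside 49.3% of all tested genes and a median of 0.00454. Without WNT5A pools 4, 12 and 14 it was 81 of 81, beside 34.5% of all tested genes. Without all 6 of these pools it was 68 of 81, beside 44.3%. After quantile normalization 53 of 81 rows were below 0, against 51.6% of all tested genes. Control pool 9 held the members' lowest levels, and without it 21 rows were lower at an unadjusted p under 0.05, against 3.52% of all tested genes, and 0 passed the adjusted threshold. Without both control pools 6 and 9, 11 rows were lower at that p, against 2.51% of all tested genes, and 0 passed the adjusted threshold. Groups did not overlap for 0 of 81 rows, against 0.0161% of all tested genes.

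RPS19, a 40S protein needed for maturation of the small subunit and mutated in human Diamond-Blackfan anaemia, had the smallest p. Its control pools ran from 182 through a median of 417 to 703 RPKM, and WNT5A pools from 195 through 255 to 391.7. All 8 WNT5A pools were below the control median, and the groups overlapped. The log2 change was -0.50 ± 0.22 (SE; limma unadjusted p = 0.0305, adjusted p = 0.673), and -0.25 without control pools 2, 3 and 6. RPL7L1 averaged 207 ± 25.7 RPKM over the 9 controls and 171 ± 20.5 over the 8 WNT5A pools (SD). Its log2 difference was -0.27 ± 0.12 (SE; adjusted p = 0.676 in limma), and -0.22 without the same 3 controls.

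The other 8 rows with the smallest p were RPLP2 (-0.49), RPS15 (-0.40), RPS18 (-0.42), RPL13A (-0.31), RPL18 (-0.32), RPL37A (-0.41), RPL36 (-0.40) and RPL37 (-0.40 on the log2 scale), with limma adjusted p of 0.686 to 0.717. Without control pools 2, 3 and 6 these 8 changes were -0.09 to -0.21. The 12 rows with fitted values above 0 were headed by RPS4X at 0.39 ± 0.29, the 5S particle protein gene RPL5 at 0.19 ± 0.20 and RPL7 at 0.16 ± 0.22 (SE), which were 0.54, 0.30 and 0.32 without the same 3 controls. Of the core rows, 37 of 44 for the 60S subunit were below 0 (median -0.21) and 28 of 32 for the 40S subunit (median -0.19). The ratio of summed 60S to summed 40S RPKM averaged 1.30 ± 0.0429 over the 9 controls and 1.29 ± 0.0398 over the 8 WNT5A pools (SD), and stayed between 1.23 and 1.37 in all 17.

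In the authors' deposited table, 0 of the 83 rows had an FDR under 0.05, against 1.01% of its genes. The smallest FDR of a member in the authors' deposited table was 0.248, for RPS19, with a log2 fold change of -0.53. Log2 fold changes in the authors' deposited table were below 0 for 71 of the 83 rows, as for 42.1% of all genes.

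**Figure D2:**
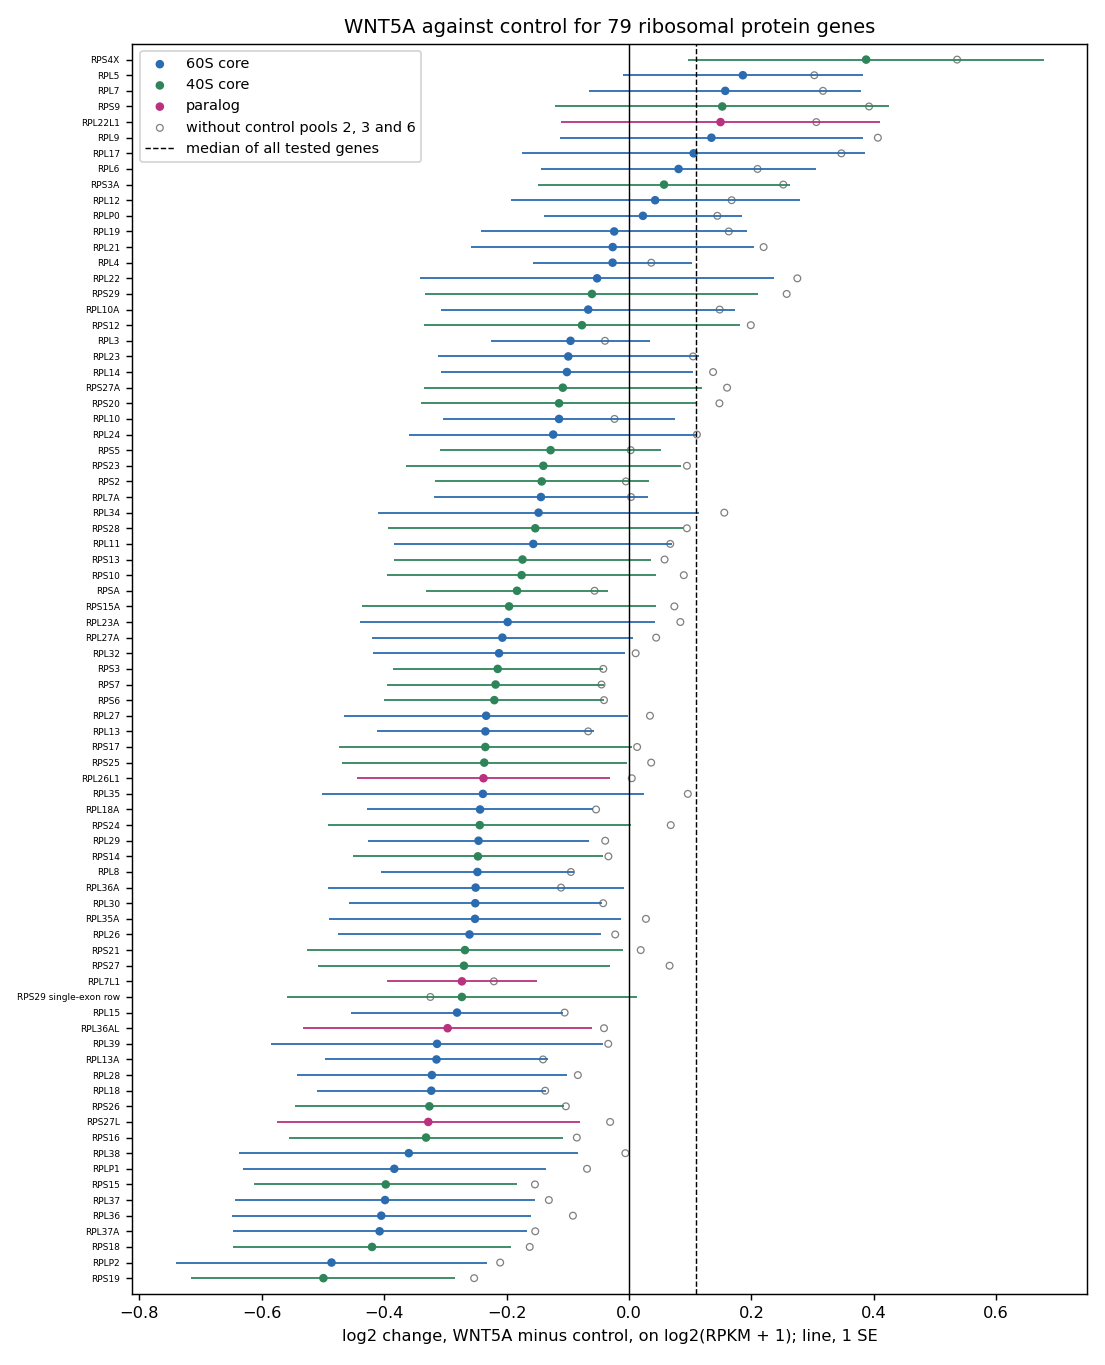
Log2 change of 79 of the 81 tested ribosomal protein genes between WNT5A and control pools (x axis, log2(RPKM + 1) scale; filled points with lines of 1 SE, coloured by subunit), with the value without control pools 2, 3 and 6 as open circles. Most filled points lie below 0, and the open circles lie further to the right for nearly every gene.

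A second pattern set WNT5A pools 4, 12 and 14 apart, in the proportions of the genes and not in their shared level. The second component held 11.2% of the variance, with weights of 0.37 to 0.59 in these 3 pools and -0.19 to -0.000528 in the other 14. Relative to the mean of the members in the same pool, 16 rows were higher in all 3 of these pools than in any of the other 14, against 2.02% of all tested genes on the same scale. Another 13 were lower in all 3 than in any other pool, against 2.18%. These pools have the lowest read totals and were set apart on that ground in earlier results of these data. No test was therefore made, and the part of read depth was not tested. The subtracted mean is the members' own and narrows their spread. Of the other tested genes, 60.6% had r below 0 with that mean. The shares of 2.02% and 2.18% are therefore not a like comparison.

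RPS4X, an X-linked 40S protein gene in mammals, led the higher set. It stood at 501, 629.1 and 629.8 RPKM in WNT5A pools 4, 12 and 14, at 159 to 328 RPKM in the other 5 WNT5A pools and at 152 to 448 RPKM in controls. RPS9 (722, 745 and 669 RPKM against 194 to 716 in the other 14) and RPL17 (620, 714 and 782 against 174 to 741) were high in the same pools, though their RPKM overlapped those of control pool 6. The set also held RPS3A, RPS12, RPL5, RPL6, RPL7, RPL9, RPL12, RPL21, RPL22, RPL22L1 and RPL24. The lower set comprised RPLP2, RPS14, RPS15, RPS16, RPS18, RPS19, RPL8, RPL15, RPL18, RPL28, RPL29, RPL37 and RPL37A. RPS18, a protein of the 40S head, stood at 570, 616 and 894 RPKM in these 3 pools, against 649 to 1086 in the other WNT5A pools. The ratio of RPS4X to RPLP2 was 1.31 to 1.89 in these 3 pools and 0.298 to 0.647 in the other 14, and the choice of these genes fixes that the ranges do not overlap. Both subunits were in both sets.

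The 10 rows with the smallest p included 7 of the lower set, namely RPS19, RPLP2, RPS15, RPS18, RPL18, RPL37A and RPL37. Without WNT5A pools 4, 12 and 14 all 81 rows had a fitted change below 0, against 34.5% of all tested genes, and 0 of them had an unadjusted p under 0.05. Without these 3 and control pools 2, 3 and 6, 68 of 81 were below 0, with a median of -0.06 (44.3% and 0.03 for all tested genes). After each gene was expressed relative to the mean of the members, RPS4X had a log2 change of 0.56 and RPS19 -0.33.

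**Figure D3:**
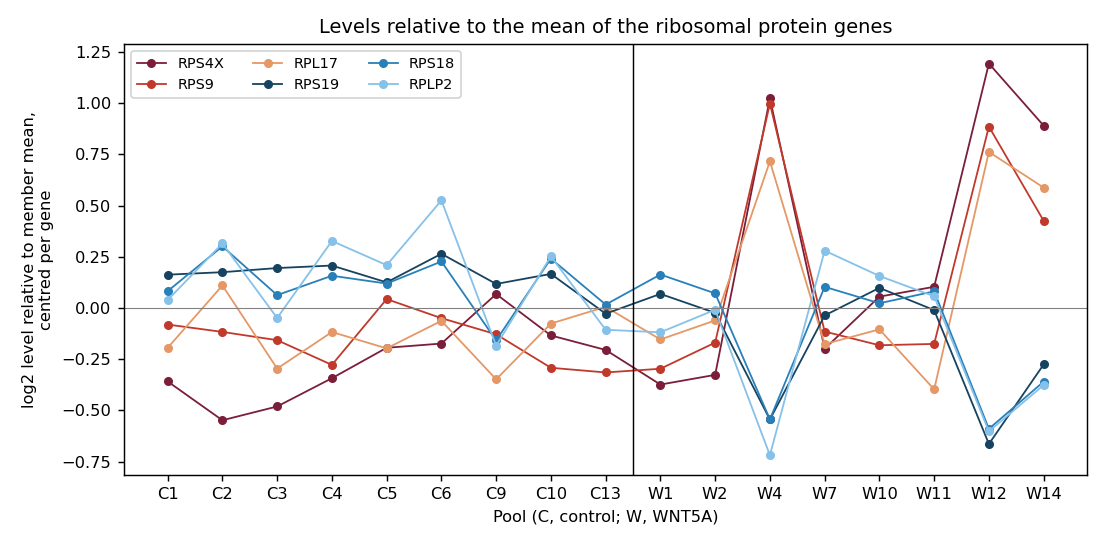
Level of 3 genes of the higher set (reds) and 3 of the lower set (blues) relative to the mean of the ribosomal protein genes in the same pool, centred per gene (y axis, log2), by pool (x axis, controls left of the line). In WNT5A pools 4, 12 and 14 RPS4X reaches 0.89 to 1.19 and RPLP2 -0.72 to -0.38, whereas the other 14 pools lie between -0.55 and 0.53 for these genes.

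**Figure D4:**
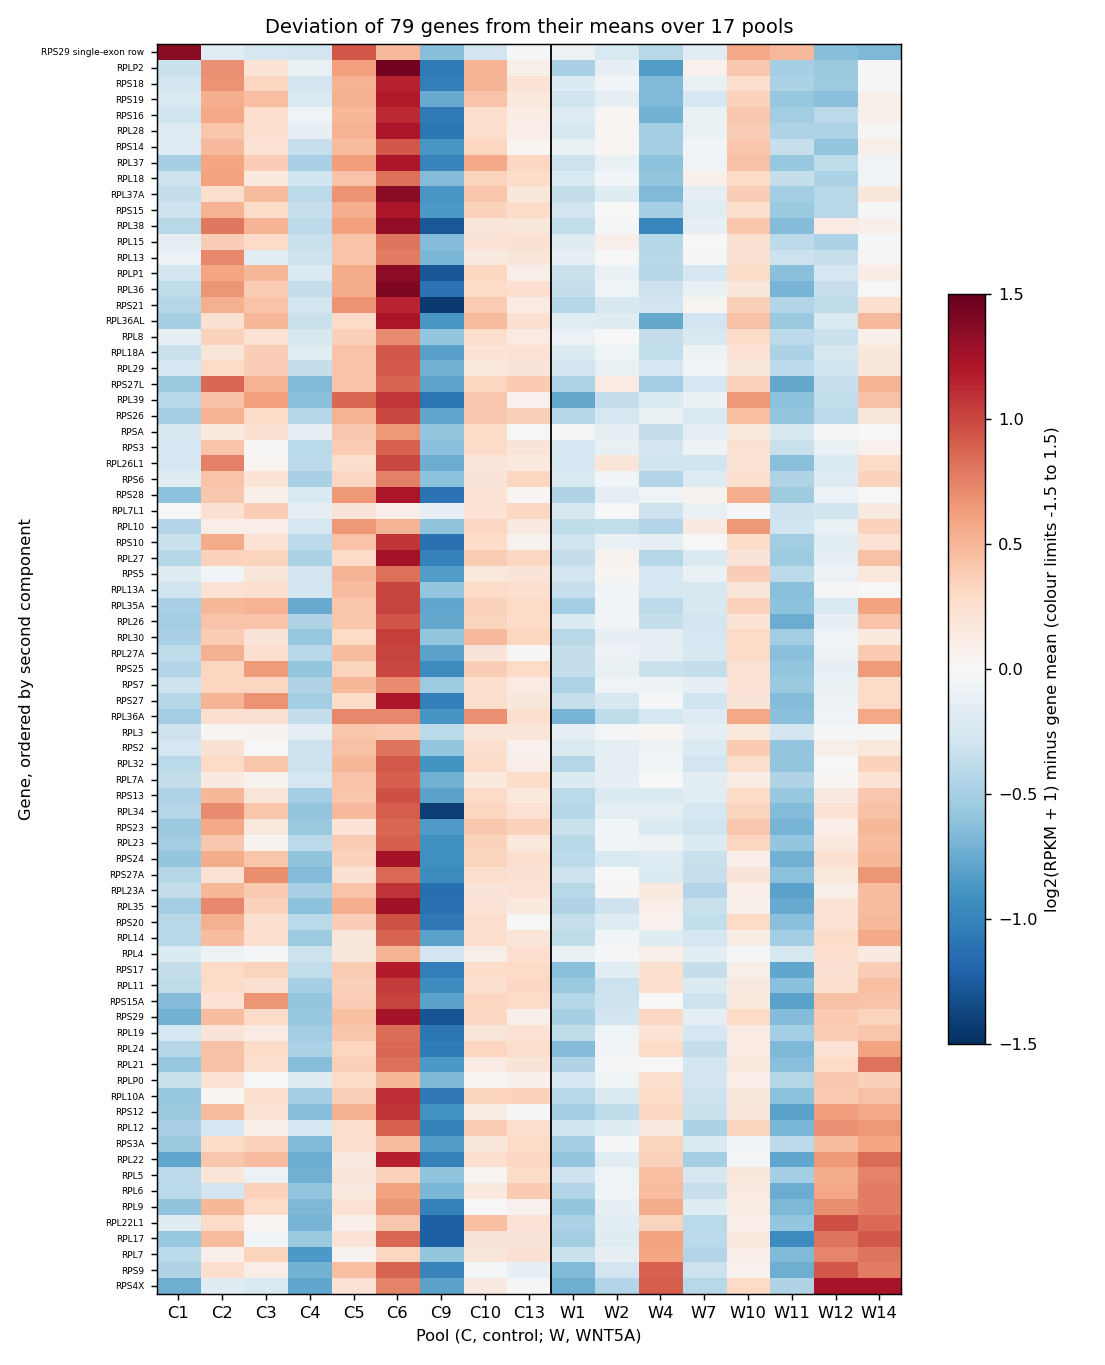
Deviation of 79 of the 81 tested ribosomal protein genes (rows, ordered by the second component) from their own means over 17 pools (columns), in log2 units on a colour scale. Whole columns share a colour, darkest in control pools 6 and 9, and the 3 columns of WNT5A pools 4, 12 and 14 run from low or near 0 towards the top to high at the bottom.

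The 3 stalk proteins, which recruit the translational GTPases to the 60S subunit, illustrate both patterns. RPLP0, the base of the stalk, averaged 1317 ± 300.5 RPKM over the 9 controls and 1332 ± 288 over the 8 WNT5A pools (SD; log2 change 0.02 ± 0.16 SE). RPLP1 averaged 1107 ± 526 and 777 ± 163 RPKM, and RPLP2 639 ± 318 and 425 ± 122. RPLP1 and RPLP2, which form the stalk's dimers, kept together (r = 0.946 over 17 pools, median over all pairs 0.867). Their ratios to RPLP0 were less steady: RPLP2 to RPLP0 ran from 0.177 in WNT5A pool 4 to 0.733 in control pool 6. RPLP2 correlated with RPLP0 at 0.564 over 17 pools and 0.924 over the 11 without the 6 pools named above.

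Paralogs were compared with their partners per length. RPL36AL, a single-exon copy of RPL36A, exceeded its parent in every pool by 5.45-fold to 11.1-fold (median 7.70), and averaged 905 against 117 RPKM. RPL26L1 had 0.346 to 0.570 times the RPKM of RPL26, RPS27L 0.646 to 1.19 times that of RPS27, and RPL22L1 0.412 to 1.07 times that of RPL22. Each of these 4 paralogs moved with its partner, at r of 0.874 to 0.931 over 17 pools. All pairs of tested rows had a median r of 0.867, so such r are not particular to paralogs and their partners. RPL7L1 differed, at r = 0.302 with RPL7 over 17 pools and 0.818 over 11, and its ratio to RPL7 was 0.212 to 0.271 in WNT5A pools 4, 12 and 14 and 0.371 to 0.716 elsewhere. Near-identical sequence means that reads of paralogs and processed copies may have been shared or dropped in counting, and how the authors treated such reads is not given in the sources used here.

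Among genes outside the set, FAU, which encodes a 40S protein fused to a ubiquitin-like protein, followed the ribosomal protein mean at r = 0.857 and averaged 1467 RPKM. It did not pass for WNT5A (log2 change -0.40 ± 0.22, SE; limma adjusted p = 0.695), and the change was -0.14 without control pools 2, 3 and 6. The 10 tested genes with a symbol that followed the mean most closely included NPAS2 (0.990), ATP5F1E (0.973), TMA7 (0.966), PSMA7 (0.964), NDUFA4 (0.958), ZC3H10 (0.958), ATP5MD (0.956), CMC2 (0.946) and SNRPG (0.945). Of these, 3 belong to the respiratory chain or ATP synthase, PSMA7 is a proteasome subunit and SNRPG a splicing protein. All 10 were lowest in control pool 9 and highest in control pool 6.

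The row named NPAS2, for a circadian transcription factor, had the highest r of any gene with a symbol outside the set. It held 30.6 RPKM in control pool 9 and 143 in control pool 6 over an exon length of 4990 bases, and r was 0.994 over 11 pools. Of 83 symbols of this form in the RefSeq gene table for assembly ARS-UCD2.0, 82 had a row in the deposited table, which was made on ARS-UCD1.2, and the remaining one was RPL31. In that RefSeq table RPL31 is the named coding gene next to NPAS2, on chromosome 11. Whether reads of RPL31 were counted in the row named NPAS2 was not tested. ZC3H10, with an exon length of 3437 bases, likewise stood out among short genes, and in human its neighbour is RPL41, which has no row under that symbol here.

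Other short messenger RNAs moved with the ribosomal protein genes. Tested members had a median exon length of 845 bases, against 2249 for all tested genes. Among the 2355 other genes at least as abundant as RPL22L1, the median r with the ribosomal protein mean was 0.741 for 156 genes under 600 bases and 0.711 for 321 genes from 600 to under 1000 bases. It was 0.401 for 1046 genes from 1000 to under 2000 bases, -0.20 for 766 from 2000 to under 4000 and -0.51 for 66 of 4000 or more. The median r fell from each class to the next longer one. For members the median r was 0.945 for 24 rows under 600 bases and 0.865 for 7 rows of 2000 bases or more. Each member is itself part of that mean, so these r are not a like comparison with those of other genes.

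The WNT5A comparison showed the same gradient in other genes. Fitted changes were below 0 for 85.3% of the 156 short genes under 600 bases (median -0.27) and for 45.5% of the 66 longest (median 0.05), beside 91.7% of 24 members under 600 bases (median -0.24). When a trend on exon length, drawn from the other genes, was removed within each pool, the means of the ribosomal protein genes still spanned 8.01 to 9.43, against 7.76 to 9.55 before, and their median pairwise r was 0.816. Fitted WNT5A changes were then below 0 for 70 of 81 rows (median -0.19), against 49.7% of all tested genes. At an unadjusted limma p under 0.05, 9 rows were lower, against 533 of all 12415 genes, and 0 passed the adjusted threshold. Within the class under 600 bases, the median deviation was -0.49, -0.45 and 0.12 in WNT5A pools 4, 12 and 14 for other genes and -0.30, -0.12 and 0.41 for members. The members' excess over other genes was larger in those 3 pools than in any other pool. Control pool 2 came next, at 0.31 for other genes and 0.49 for members, and the direction varied among the remaining pools. RNA integrity and fragment length were not analysed here, and their part in these movements was not tested.

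**Figure D5:**
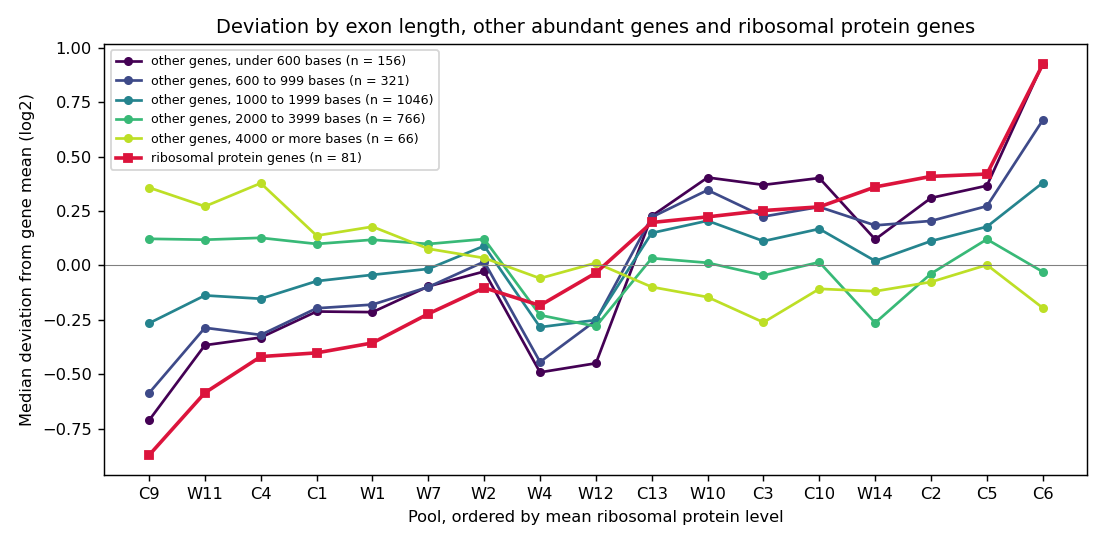
Median deviation from the gene mean (y axis, log2) in each pool (x axis, ordered by mean ribosomal protein level) for ribosomal protein genes (red squares) and for other abundant genes by exon length (circles, dark for short). Short genes rise from -0.71 in control pool 9 to 0.93 in control pool 6 with the ribosomal protein genes, and the longest genes run the other way, from 0.36 to -0.20.

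Genes that make, regulate or assist ribosomes followed this pattern less closely, and no member of these lists passed for WNT5A in limma. The median exon length was 1428 bases for the chaperone list and 2103 to 2691 for the others, against 845 for members. Other abundant genes of 2000 to under 4000 bases had a median r of -0.20. The part of exon length in the r of these lists was not tested. Over all tested genes 37.7% had a fitted WNT5A change below 0, with a median of 0.11. Of 7 tested genes listed under elongation factors, some by name only, 5 were lower and 2 higher. The smallest p were for EEF1E1 (-0.24), EEF1D (-0.22) and EEF1B2 (-0.18), which were -0.12, -0.02 and 0.00316 without control pools 2, 3 and 6. EEF1B2, a subunit of the exchange factor of EEF1A, had r = 0.924 with the ribosomal protein mean, whereas EEF2, which drives translocation and has an exon length of 3182 bases, had -0.50. Of 17 other genes known for TOP messenger RNAs, 8 were lower and 9 higher (median 0.02), with the smallest p for EIF3F (-0.24), NACA (-0.29) and EEF1D. Without the same 3 controls EIF3F was -0.23 and NACA -0.10. NACA (0.884), TPT1 (0.874) and EEF1B2 had the highest r of that list, and EIF4B (-0.46) and EEF2 the lowest.

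Of 42 ribosome biogenesis genes 24 were lower and 18 higher (median -0.03). The smallest p were for the kinase RIOK1 (-0.56), the 60S factor EIF6 (-0.46) and the methyltransferase EMG1 (-0.29). These 3 were -0.41, -0.22 and -0.24 without control pools 2, 3 and 6. The median r of the 42 genes with the ribosomal protein mean was 0.0164, from -0.74 for BMS1 to 0.881 for NOP10. RNA polymerase I genes and regulators (8 lower, 9 higher; median 0.05) were led by POLR1G (-0.38), POLR1A (0.38) and POLR1D (-0.24), or -0.24, 0.32 and -0.05 without the 3 controls. Dedicated chaperones and partners of ribosomal proteins (8 of 9 lower; median -0.30) were led by HEATR3 (-0.40), RPS19BP1 (-0.40) and BCCIP (-0.30), which were -0.26, -0.15 and -0.08 without control pools 2, 3 and 6. Regulators of TOP messenger RNAs and of mTOR signalling had 4 lower and 9 higher (median 0.27), with EIF4EBP2 (0.66), RPS6KB2 (-0.38) and LARP4 (0.46) foremost, or 0.37, -0.34 and 0.24 without the 3 controls. Nascent chain factors (5 lower, 10 higher; median 0.05) were led by NAA15 (0.49), NACA and SRP72 (0.38), with NAA15 at 0.47 and SRP72 at 0.23 without the 3 controls. Counts near the share over all tested genes, 37.7% below 0 with a median of 0.11, are not a result about a list.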

How the data were processed

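The deposited table gives RPKM per pool for 17 pools beside each gene's exon length. It also holds the authors' log2 fold change, log2 CPM, likelihood ratio score, p-value and FDR, per the file headers. FastQC, HISAT2, featureCounts, edgeR and the assembly ARS-UCD1.2 are named in the submitters' processing notes. Versions, annotation release, strand setting and the handling of multi-mapping reads are not given in these sources. Libraries were made with the TruSeq stranded mRNA kit after RNeasy micro extraction, per the labels' protocols.

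RPKM times length fell on whole multiples of 1 step per pool for 100% of values (tolerance 0.001), and these multiples were taken as reads. A floor of 3 reads on 1 kilobase was 0.0155 to 0.0841 RPKM. Since the reads carry no molecular identifiers, this floor covers counting error only.

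The table holds RPKM, for which a limma fit had been planned, and the recovered reads were not fitted with a count model. Groups were compared with a two-sided limma fit (version 3.58.1, R 4.3.3, eBayes with trend and robust) of log2(RPKM + 1) over the 12415 genes that reached 0.5 RPKM in 8 or more pools, with Benjamini-Hochberg adjustment at 0.05. Fold changes on this scale understate changes of low genes. The script was tested on simulated data. Members, lists, pools left out and the naming rule were chosen with earlier results of these data known. Named members were the 10 with the smallest p, the 5 at either end of mean, SD and r, stalk proteins and paralog pairs; others were the 10 closest genes and 3 per list; genes given as the extremes of r within a list were picked after their values were seen. Some genes that these rules name are not reported here. Alternatives are in the closing section. Listed genes without a row (RPL31, RPL41, RPL39L, RRP7A, AROS, ACL4, SYO1, HAS2, PTX3, PTPRC, HBB and PRM1) gave no value. No per-sample column was left unused. Plots used matplotlib 3.10.9.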

Additional observations from a re-analysis of the deposited data

Results flagged for a closer look

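In 4 of 72 sets of values checked (34 named rows, the summed level and the mean level, in each group), 1 pool lay far from the rest of its group; chance flags about 1 in 20. Control pool 6 held 133 RPKM of RPL22, 1338 of RPLP2 and 247 of the multi-exon row of RPS29, each the highest of 9 controls. WNT5A pool 10 held 523 RPKM of RPL37, the highest of 8 WNT5A pools.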

How the results depend on the processing

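No ribosomal protein gene passed the threshold under any of the 29 alternatives, and the 10 named rows with the smallest p kept a log2 change below 0 in all of them. The count of rows below 0, 69 of 81 as reported, was 81 without WNT5A pools 4, 12 and 14. It was 68 without these and control pools 2, 3 and 6, and 35 without control pools 2, 3 and 6 alone. After quantile normalization it was 53, with the trend on exon length removed 70, and 59 to 75 when any 1 pool was left out. The median of the members minus that of all genes, -0.32 as reported, was 0.01 without those 3 controls, -0.07 after quantile normalization, -0.19 with the trend on exon length removed and -0.18 to -0.45 with 1 pool left out. Rows lower at an unadjusted p under 0.05, 2 as reported, numbered 21 without control pool 9 (3.52% of all genes) and 11 without controls 6 and 9 (2.51% of all genes). With the trend on exon length removed they numbered 9 (533 of all 12415 genes). After quantile normalization the median pairwise r was 0.598 and the within-group SD of the mean level 0.26, against 0.867 and 0.45 as reported. The length trend and the removal of controls 6 and 9 were chosen after seeing the data. Pools numbered 1, 2, 4 and 10 in both groups deviated together at r of 0.0217 to 0.216. The control most like WNT5A pool 1 was control pool 1. For WNT5A pools 2, 4 and 10 it was control pools 1, 9 and 5. Such r cannot decide whether equal numbers mark a pairing, so the pools were treated as unpaired. With a replicate block 55 rows were below 0 and the median difference was -0.15. RPL3L and RPL10L had no reads in some pools, deep ones included, and were not tested.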
